A study of Mus musculus with 18 samples.

Results

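The 4 mouse tropomyosin genes, Tpm1, Tpm2, Tpm3 and Tpm4, were followed through the differentiation of C2C12 muscle cells and after depletion of Setd2. They were taken by name, as the whole tropomyosin family, from 47311 genes, and they hold 45 of the 114200 transcripts that matched the annotation. C2C12 is an established mouse myoblast line whose cells fuse into multinucleated myotubes when differentiated. Differentiated cells (myotubes) and undifferentiated cells (myoblasts) were each given the siRNA si-Setd2#1, the siRNA si-Setd2#2 or the control si-Ctrl, with 3 libraries labelled as biological replicates in each of the 6 groups. Polyadenylated RNA was taken straight after the cells had been stretched, in all groups, so none of them is unstretched. Setd2 encodes a histone H3 lysine methyltransferase. All cells come from 1 line, the siRNAs lower Setd2 without deleting it, and p-values measure the spread between the labelled replicates.

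Tropomyosins are coiled-coil proteins that lie end to end along actin filaments. In striated muscle they work with troponin, and shift on the filament when calcium binds troponin so that myosin can reach actin. In other cells, different tropomyosin isoforms mark different populations of actin filaments, such as stress fibres. Across the genes, isoforms arise through a choice of start (a long form from the upstream promoter or a short form from an internal one), of the internal exon 6 (6a or 6b) and of the last coding exon. The last coding exon named 9a gives the end that binds troponin in striated muscle, 9d is the end used in smooth muscle and non-muscle cells, and 9c is found mainly in brain.

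The last coding exons carry the isoform switch and were read from the mm10 genome; each is given with the chromosome range of its coding bases before the stop codon, and the capitals mark the stop codon.
Tpm1 exon 9a (chr9:67029664-67029742, minus strand): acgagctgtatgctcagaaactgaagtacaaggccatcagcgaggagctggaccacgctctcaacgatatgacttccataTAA
Tpm1 exon 9d (chr9:67023362-67023441, minus strand): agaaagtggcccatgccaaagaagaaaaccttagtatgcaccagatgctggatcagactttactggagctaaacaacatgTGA
Tpm2 exon 9a (chr4:43515924-43516003, minus strand): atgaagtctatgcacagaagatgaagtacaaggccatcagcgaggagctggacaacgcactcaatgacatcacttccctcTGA
Tpm2 exon 9d (chr4:43514782-43514861, minus strand): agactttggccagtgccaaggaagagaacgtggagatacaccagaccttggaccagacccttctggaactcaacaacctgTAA
Tpm3 exon 9a (chr3:90091013-90091091, plus strand): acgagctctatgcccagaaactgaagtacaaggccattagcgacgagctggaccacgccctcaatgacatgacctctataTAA
Tpm3 exon 9d (chr3:90099528-90099607, plus strand): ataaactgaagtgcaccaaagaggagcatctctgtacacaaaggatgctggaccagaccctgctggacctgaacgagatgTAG
Tpm4 exon 9d (chr8:72151742-72151821, plus strand): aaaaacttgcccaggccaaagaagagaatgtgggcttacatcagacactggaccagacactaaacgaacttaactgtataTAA
In Tpm1 and Tpm3 the 9a exon shown is joined to a further exon that supplies the last coding base and the stop codon, so its range covers 79 of the 80 coding bases. The 9a exons were much alike: Tpm1 and Tpm3 shared 88.8% of these bases, Tpm1 and Tpm2 82.5%, and Tpm2 and Tpm3 81.2%. The 9d exons shared between 58.8% and 71.2% between genes. Within a gene, 9a and 9d shared 42.5% of bases in Tpm1, 41.2% in Tpm2 and 45% in Tpm3. Tpm4 is annotated with a 9d end and no 9a end.

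Tpm1 lies at chr9:67022590-67049406 on the minus strand (ENSMUSG00000032366) with 21 transcripts, of which 4 end in 9a, 7 in 9d and 3 in 9c. Tpm2 lies at chr4:43514711-43523765 on the minus strand (ENSMUSG00000028464) with 6 transcripts, of which 2 end in 9a and 1 in 9d. Tpm3 lies at chr3:90072649-90100902 on the plus strand (ENSMUSG00000027940) with 16 transcripts, of which 2 end in 9a, 2 in 9d and 1 in 9c. Tpm4 lies at chr8:72134975-72153142 on the plus strand (ENSMUSG00000031799) with 2 transcripts, of which 1 is coding. The other 22 transcripts of the family have no class, since they are non-coding, end in exon 9b or have no complete coding end.

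Libraries held 43544308 to 66615342 estimated counts. The header of si-Setd2#2 myoblast replicate 3 names SETD3 where its siRNA number and the other headers name SETD2, and the header of si-Ctrl myotube replicate 3 carries a different control name. Headers also start with prefixes that no source explains (C13 or D1 for a myotube library, C14 or D2 for a myoblast library) and that are spread unequally over the groups. Tropomyosin calls of the main fits after depletion that rest on these libraries are given with and without them, by gene, stop codon class and transcript. The Setd2 values, and most values that were not called, are given with all libraries only. Setd2 averaged 44.7 ± 11.6, 35.5 ± 2.39 and 103.0 ± 3.19 CPM (estimated counts scaled to library size, here within the stage) in si-Setd2#1, si-Setd2#2 and si-Ctrl myotubes, and 40.2 ± 4.41, 43.9 ± 3.09 and 110.6 ± 10.4 CPM in the same myoblast groups (SD, n = 3 each). The doubtful si-Setd2#2 myoblast library had 40.3 CPM, below the other 2 of its group. Setd2 was lower with si-Setd2#1 and with si-Setd2#2 in both stages, by log2 fold changes of -1.20 ± 0.17 and -1.54 ± 0.17 in myotubes and -1.46 ± 0.10 and -1.33 ± 0.10 in myoblasts (SE; edgeR adjusted p between 1.14e-05 and 0.00299). The stages went with their labels: all 6 striated muscle markers (Des, Ckm, Myh3, Myog, Ttn, Acta1) were higher and all 6 markers of undifferentiated or dividing cells (Pax7, Myf5, Mki67, Top2a, Ccnb1, Cdk1) lower in control myotubes than in control myoblasts. The rise was not limited to striated muscle markers. Of 6 smooth muscle markers, 4 were higher and 1 lower, and of 5 fibroblast markers tested, 4 were higher and 0 lower. Of all genes, 39.4% were higher and 38.1% lower in this comparison.

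Control myotubes and control myoblasts both expressed all 4 tropomyosin genes, at different levels. Tpm2 and Tpm1 were higher in myotubes, and Tpm3 and Tpm4 were lower. All 4 members passed the test (edgeR's quasi-likelihood test on gene counts, Benjamini-Hochberg adjusted p under 0.05), 2 in each direction, where 39.4% of all 16930 genes tested were called higher and 38.1% lower, so being called here is common. All 4 calls held without si-Ctrl myotube replicate 3, with log2 fold changes of 1.13 for Tpm1, 4.01 for Tpm2, -0.86 for Tpm3 and -1.18 for Tpm4 (adjusted p between 3.09e-19 and 3.97e-13). In bulk RNA, fewer cells of a type and less RNA per cell cannot be told apart.

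Tpm2 encodes the beta tropomyosin of striated muscle and related smooth muscle and non-muscle forms. It had 2603, 2524 and 2385 CPM in the 3 control myotube libraries, against 171.5, 155.1 and 152.1 CPM in control myoblasts (CPM here and in the next genes scaled over all 18 libraries). Every myotube library was far above every myoblast library, and the log2 fold change was 3.97 ± 0.06 (SE; adjusted p = 1.28e-20), or 15.7-fold.

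Tpm1 encodes the alpha tropomyosin, which is the fast-muscle and heart form when it ends in 9a. Its CPM were 1149, 1206 and 1133 in control myotubes, against 537.2, 535.8 and 541.5 in control myoblasts. The groups were well apart, with a log2 fold change of 1.11 ± 0.03 (SE; adjusted p = 5.21e-17). On the TPM scale, which divides counts by transcript length before scaling to library size, the log2 change was 1.55, with the same call.

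Tpm4 encodes a short cytoskeletal tropomyosin. It had 378.4, 368.6 and 418.4 CPM in control myotubes, against 812.3, 867.9 and 853.0 CPM in control myoblasts. It was lower in every myotube library, by a log2 fold change of -1.12 ± 0.05 (SE; adjusted p = 1.77e-14), and was at 0.46 of the myoblast level.

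Tpm3 gives the slow-muscle tropomyosin and, from its internal start, short cytoskeletal forms. It had 330.9, 330.0 and 340.7 CPM in control myotubes, against 589.5, 602.1 and 607.4 CPM in control myoblasts. The groups did not overlap, and the log2 fold change was -0.84 ± 0.04 (SE; adjusted p = 1.44e-14). On the TPM scale it was -0.38, with the same call.

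Per length, the order of the genes differed between the stages. In control myotubes Tpm2 stood at 3230 ± 92.7 TPM, Tpm1 at 1969 ± 65.0, Tpm3 at 443.5 ± 16.2 and Tpm4 at 369.4 ± 30.4 TPM (SD, n = 3). In control myoblasts Tpm4 stood at 792.9 ± 26.6 TPM, Tpm1 at 671.7 ± 4.496, Tpm3 at 575.9 ± 10.03 and Tpm2 at 233.7 ± 14 TPM. No neighbours in either order overlapped in their libraries. As a share of all tropomyosin TPM, Tpm2 took 53.7% in control myotubes and 10.3% in control myoblasts, and Tpm4 took 6.15% in control myotubes and 34.9% in control myoblasts.

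**Figure D1:**
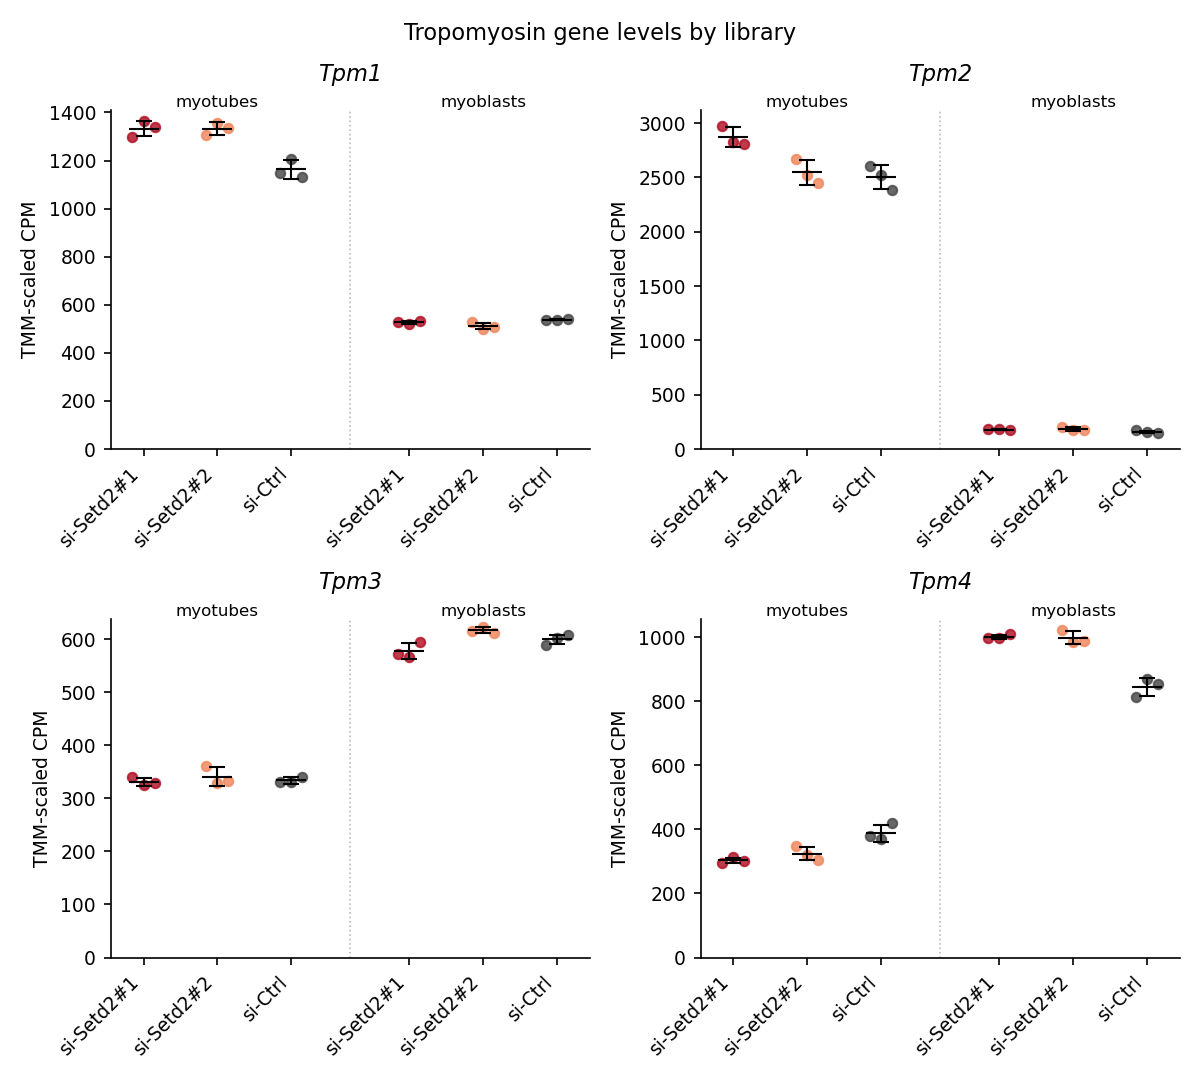
TMM-scaled CPM of the 4 tropomyosin genes in each of the 18 libraries, myotubes left and myoblasts right in each panel; points are libraries, bars the mean and SD of 3. Tpm2 and Tpm1 are higher in every myotube library, Tpm3 and Tpm4 in every myoblast library, and the si-Setd2 groups sit above si-Ctrl for Tpm1 in myotubes, below it for Tpm4 in myotubes and above it for Tpm4 in myoblasts.

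The isoforms of Tpm1 and Tpm3 turned over from the non-muscle to the muscle end, while Tpm2 gained both ends. For Tpm1, 73.6%, 73.9% and 71.9% of its TPM ended in 9a in the control myotube libraries, against 6.80%, 5.33% and 4.54% in control myoblasts. The non-muscle 9d end held 14.6% ± 1.32 in control myotubes and 79.4% ± 1.41 in control myoblasts (SD, n = 3). The gene thus gave mostly muscle ends in every myotube library and mostly non-muscle ends in every myoblast library.

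For Tpm3, 55.8%, 53.5% and 54.8% of its TPM ended in 9a in control myotubes, against 5.68%, 5.56% and 5.19% in control myoblasts. The 9d end held 29.9% ± 0.97 in control myotubes and 85.1% ± 0.50 in control myoblasts. For Tpm2, the 9a share was 50.6%, 50.2% and 48.9% in control myotubes and 28.2%, 28.2% and 25.8% in control myoblasts. No library of either stage overlapped with the other in any of these shares, and Tpm2 kept a 9d share of 46.4% ± 0.44 in control myotubes. With 3 libraries against 3, the exact two-sided permutation test cannot go below p = 0.1, which each of the 3 shares reached (Benjamini-Hochberg adjusted p = 0.181 over 56 share tests). Without si-Ctrl myotube replicate 3 the shares differed by 68.2 points in Tpm1, 49.2 in Tpm3 and 23.02 in Tpm2 (exact p = 0.2, the smallest that 2 libraries against 3 can give). Over the family, 54.8% ± 1.16 of tropomyosin TPM ended in 9a in control myotubes and 5.85% ± 0.70 in control myoblasts.

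A second test asks, across all genes, whether a stop codon class changed relative to its own gene (edgeR's differential splicing test on estimated counts summed by annotated stop codon). Of 15 tropomyosin classes tested, 11 changed between control myotubes and control myoblasts, 5 up and 6 down, against 7.74% of all 19686 classes. Relative to their genes, the 9a joined to 9b class rose by 8.07 in Tpm3 (adjusted p = 5.61e-50) and by 4.91 in Tpm1 (adjusted p = 5.17e-51) on the log2 scale. The Tpm2 9a class rose by 0.66 (adjusted p = 7.81e-08). The 9d classes fell by 1.93 in Tpm1 (adjusted p = 5.34e-29), by 1.06 in Tpm3 (adjusted p = 1.25e-19) and by 0.80 in Tpm2 (adjusted p = 3.75e-10). The weakest of the 11 calls, the Tpm1 9a exon read through to its own stop (-0.45, adjusted p = 0.04), ended without each of 10 libraries: si-Ctrl myotube replicates 1 (adjusted p = 0.111), 2 (0.174) and 3 (0.073), si-Ctrl myoblast replicates 1 (0.0747) and 2 (0.1), and, through the shared fit, si-Setd2#1 myotube replicates 1 (0.0559) and 3 (0.055), si-Setd2#2 myotube replicates 2 (0.0553) and 3 (0.0546) and si-Setd2#1 myoblast replicate 1 (0.0535). This test pools the spread over the classes of a gene, so its p-values are smaller than 3 libraries a group would give alone.

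**Figure D2:**
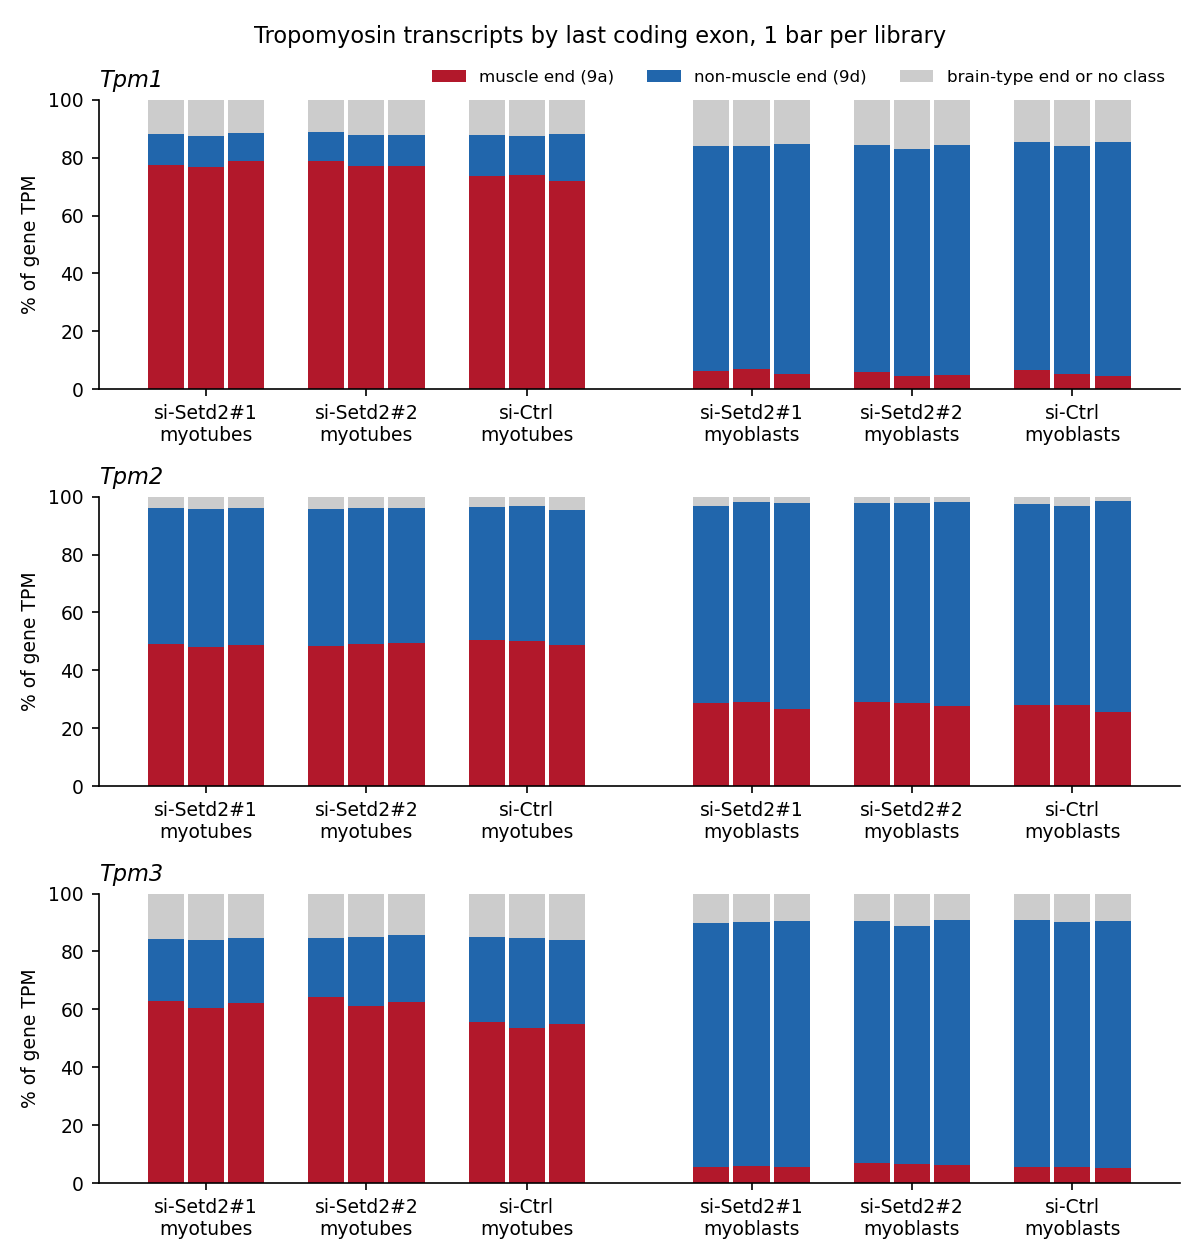
Share of each gene's TPM by last coding exon in Tpm1, Tpm2 and Tpm3, with 1 bar for each of the 18 libraries grouped by treatment, myotubes left and myoblasts right. Red is the muscle end 9a, blue the non-muscle end 9d and grey the brain-type end or no class; 9a holds 73.1% of Tpm1 in si-Ctrl myotubes and 5.56% in si-Ctrl myoblasts.

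A few transcripts carried these shares. Tpm1-205, the long form with exons 6b and 9a, which is the striated muscle alpha tropomyosin, had 1404, 1485 and 1355 TPM in control myotubes, against 28.3, 19.7 and 14.3 TPM in control myoblasts. It was the main Tpm1 transcript in every control myotube library (log2 fold change 6.12 ± 0.24, SE; adjusted p = 1.60e-11). Its 9d counterpart with the same start and exon 6, Tpm1-216, did not pass the test, at 246.8 ± 15.3 TPM in control myotubes and 240.4 ± 18.7 TPM in control myoblasts. The short 9d form Tpm1-211 had 31.0 ± 4.28 TPM in control myotubes and 209.0 ± 18.5 TPM in control myoblasts, and the long 6a form Tpm1-213 had 7.08 ± 1.58 and 66.5 ± 3.76 TPM in the same groups (adjusted p = 1.46e-11 and 0.000182). The short 6a form Tpm1-212 was listed at 0 in all 3 control myotube libraries and averaged 11.8 ± 1.74 TPM in control myoblasts. The minor long 6b form Tpm1-215 also fell, with 2.19 ± 0.27 TPM in control myotubes and 5.56 ± 0.38 TPM in control myoblasts (adjusted p = 0.00216). Within the 9d class of Tpm1, then, the short and 6a forms were lower in myotubes, while the most abundant 9d form was not called.

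Tpm2-202, the muscle beta form with 6b and 9a, averaged 1610 ± 73.1 TPM in control myotubes and 61.1 ± 5.33 TPM in control myoblasts. Tpm2-203, the form with 6a and 9d known from smooth muscle and non-muscle cells, had 1528, 1497 and 1468 TPM in control myotubes, against 173.4, 154.9 and 164.2 TPM in control myoblasts. Both rose, Tpm2-202 by a log2 fold change of 4.75 ± 0.10 and Tpm2-203 by 3.22 ± 0.07 (SE; adjusted p = 2.69e-14 and 2.02e-14). In these myotubes, then, the non-muscle form of Tpm2 stood close to its muscle form in TPM. This closeness rests on the division of counts by annotated length, which is 2098 bases for Tpm2-202 and 1164 bases for Tpm2-203.

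Tpm3 changed its start as well as its end. Tpm3-205, the long slow-muscle form with 9a, had 179.2, 167.1 and 182.8 TPM in control myotubes, against 1.49, 1.21 and 0.78 TPM in control myoblasts (log2 fold change 7.27 ± 0.18, SE; adjusted p = 1.51e-13). Tpm3-204, a long form with the non-muscle end 9d, had 82.0 ± 7.04 TPM in control myotubes and 0.49 ± 0.49 TPM in control myoblasts. Tpm3-201, the short cytoskeletal form with 9d, had 50.4 ± 8.45 TPM in control myotubes and 489.4 ± 8.45 TPM in control myoblasts (log2 fold change -3.26 ± 0.12, SE; adjusted p = 5.78e-12). Long forms therefore made up 68.8% ± 2.13 of the start-classed Tpm3 TPM in control myotubes and 0.32% ± 0.02 in control myoblasts. Tpm3-202, a short form with 9a, was also higher in control myotubes, at 66.4 ± 3.59 TPM against 30.4 ± 0.81 TPM in control myoblasts (log2 fold change 1.15 ± 0.05, SE; adjusted p = 6.28e-11).

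The long form share of Tpm1 was 97.5% ± 0.30 in control myotubes and 60.4% ± 3.09 in control myoblasts. Among transcripts with an annotated exon 6 choice, 6b was in 99.6% ± 0.10 of Tpm1, 51.8% ± 0.63 of Tpm2 and 64.7% ± 1.20 of Tpm3 in control myotubes, and in 86.6% ± 0.51, 26.7% ± 1.41 and 6.06% ± 0.30 of these genes in control myoblasts. In Tpm3 the shares of the long start, of 6b and of 9a were thus all higher in myotubes, but not always in the same transcripts. Tpm3-204 joins the long start to 6a and 9d, Tpm3-202 joins the short start to 6b and 9a, and both rose. In Tpm1 exon 6b was already the main choice in myoblasts.

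In all, 35 tropomyosin transcripts passed the low-count filter, and 23 of them were called between the stages, 16 higher and 7 lower in control myotubes, against 45% of all transcripts in either direction. All 23 were also called without si-Ctrl myotube replicate 3. The other 10 did not enter the test. Averages reached at least 5 TPM in some group for 28 transcripts, and the other 17 stayed at or under 3.997 TPM in every group mean. Among the transcripts with no class, Tpm1-219, an annotated non-coding transcript of the first exons, averaged 176.8 ± 10.7 TPM in control myotubes and 58.6 ± 5.30 TPM in control myoblasts, and Tpm2-206, a fragment with an incomplete coding end, averaged 90.6 ± 19.5 and 1.07 ± 0.93 TPM in the same groups. The other named transcripts with no class or the brain-type end had group means between 3.52 and 26.8 TPM in control myotubes and between 1.71 and 14.7 TPM in control myoblasts, and Tpm1-201, a further 9a form, had 25.5 ± 0.75 and 15.9 ± 0.49 TPM in these groups.

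**Figure D3:**
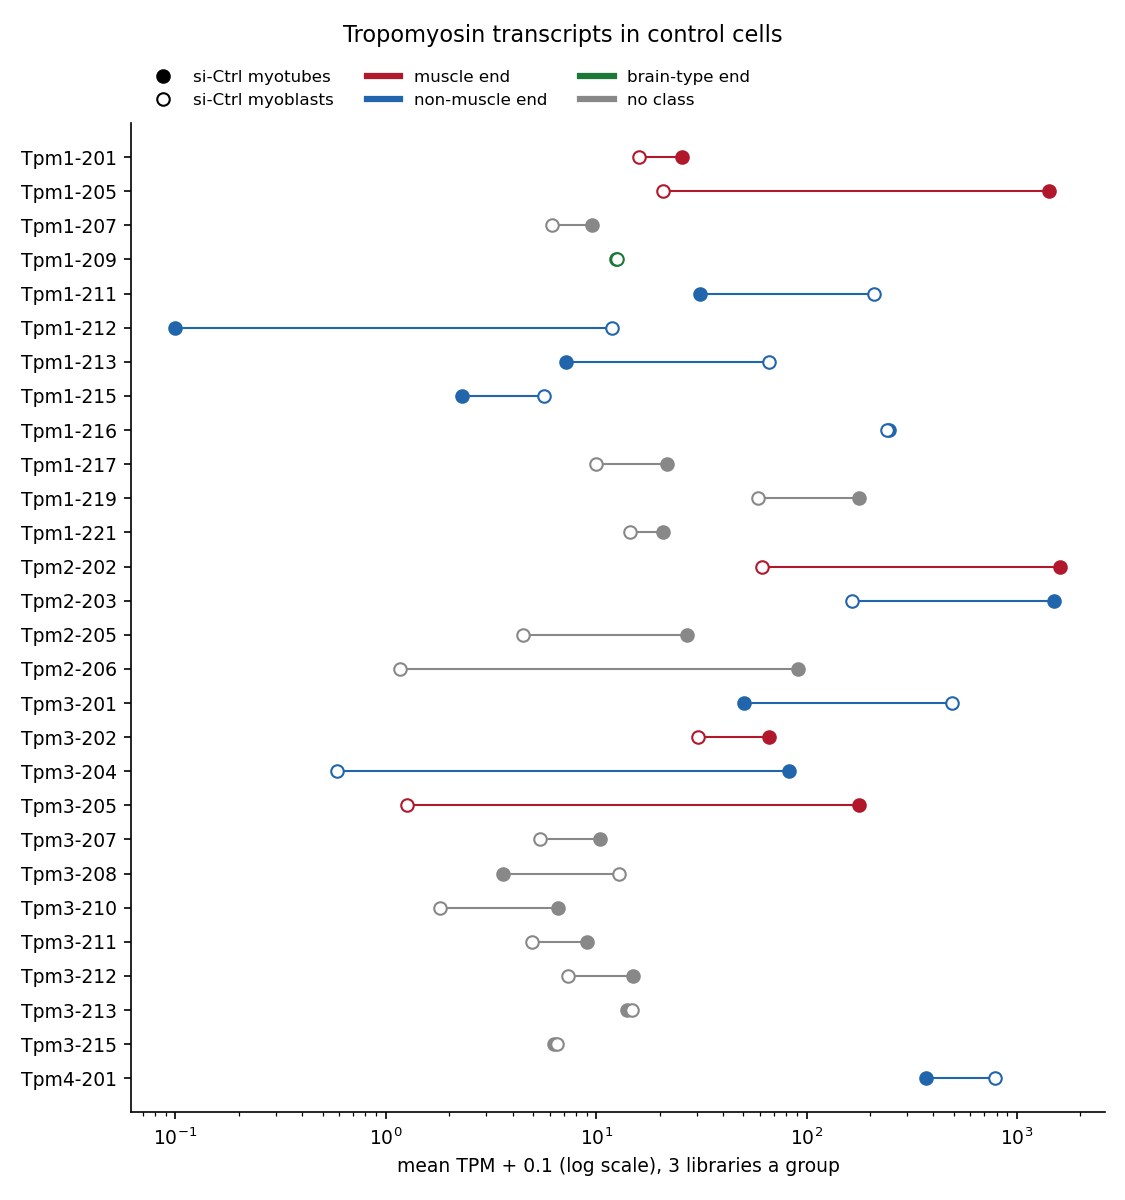
Mean TPM plus 0.1 on a log axis of the 28 tropomyosin transcripts with at least 5 TPM in some group, in si-Ctrl myotubes (filled) and si-Ctrl myoblasts (open), 3 libraries each. Tpm1-205, Tpm2-202, Tpm2-203, Tpm3-204 and Tpm3-205 lie far to the right in myotubes, and Tpm3-201, Tpm1-211, Tpm1-212 and Tpm1-213 in myoblasts.

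Since Tpm3 changed its start, its promoters are shown. RefSeq (GRCm38.p6) gives a window of 250 bases before to 50 bases after each start, and holds 5 windows for the 4 genes, of which 2 are Tpm3 windows; the capitals mark the E-box.
Tpm3 long-form promoter (chr3:90072401-90072700, plus strand): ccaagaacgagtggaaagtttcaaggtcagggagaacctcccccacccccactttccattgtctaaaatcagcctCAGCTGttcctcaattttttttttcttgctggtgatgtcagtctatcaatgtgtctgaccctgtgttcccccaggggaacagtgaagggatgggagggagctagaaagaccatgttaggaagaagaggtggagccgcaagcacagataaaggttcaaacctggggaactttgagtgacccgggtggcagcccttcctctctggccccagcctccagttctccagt
Tpm3 short-form promoter (chr3:90079271-90079570, plus strand): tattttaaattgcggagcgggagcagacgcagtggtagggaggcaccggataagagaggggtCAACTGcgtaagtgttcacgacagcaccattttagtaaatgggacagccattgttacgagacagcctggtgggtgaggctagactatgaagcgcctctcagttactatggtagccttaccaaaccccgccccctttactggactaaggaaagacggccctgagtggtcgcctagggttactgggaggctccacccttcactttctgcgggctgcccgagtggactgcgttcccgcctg
An E-box (CANNTG, read on both strands, where it is its own complement), the kind of motif bound by myogenic factors such as MyoD, was found 1 time in each of the 5 windows. It is common, being present in 72.3% of 32817 promoter windows of the same length. The MCAT motif (CATTCC on either strand) was found in the Tpm1 window and in 14.7% of all windows. The CArG and MEF2 motifs matched in none of the 5 windows and in 1.6% and 3.2% of all windows. A match describes letters only and says nothing of binding. Both Tpm3 windows hold an E-box, and the long forms of Tpm3 rose in control myotubes. Its short forms did not move together: the short cytoskeletal form fell, while the short form with the muscle end rose.

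After Setd2 depletion the changes were far smaller than those of differentiation, the largest at gene level being 1.28-fold, and they were not the same in the 2 stages. In myotubes Tpm1 rose and Tpm4 fell with each siRNA, and Tpm2 rose with si-Setd2#1. In myoblasts Tpm4 rose with each siRNA and Tpm2 with si-Setd2#2. Tpm3 passed the test in none of these 4 comparisons at gene level. Both siRNAs were set against the same si-Ctrl libraries, so their values are not independent of each other.

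In myotubes, 3 of the 4 genes were called with si-Setd2#1 (2 higher, 1 lower), where 11% of all genes were called higher and 9.57% lower. With si-Setd2#2, 2 were called (1 in each direction), where 15.8% were higher and 16.4% lower. Tpm1 had 1283, 1328 and 1305 CPM (scaled within the stage, here and below) with si-Setd2#1 and 1281, 1314 and 1300 CPM with si-Setd2#2, against 1127, 1168 and 1109 CPM with si-Ctrl. All 6 depleted libraries were above all control libraries, with log2 fold changes of 0.20 ± 0.04 and 0.19 ± 0.04 (SE; adjusted p = 0.00237 and 0.00167), or 0.18 with each siRNA without si-Ctrl replicate 3 (adjusted p = 0.0131 and 0.0078).

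Tpm4 in myotubes had 292.8, 304.8 and 292.5 CPM with si-Setd2#1 and 340.8, 310.0 and 297.6 CPM with si-Setd2#2, against 371.0, 357.0 and 409.6 CPM with si-Ctrl. All 6 depleted libraries were below all control libraries. Tpm4 fell by 0.35 ± 0.06 and 0.26 ± 0.06 on the log2 scale (SE; adjusted p = 0.00134 and 0.00455), and without si-Ctrl replicate 3 the values were -0.30 and -0.20 (adjusted p = 0.00514 and 0.0184). With 1 or 2 libraries a group, Tpm4 differed within the C13 libraries by -0.41 on the log2 scale with si-Setd2#1 and by -0.19 with si-Setd2#2. Within the D1 libraries it differed by -0.26 and -0.23. Tpm1 differed by 0.20 with each siRNA within C13, and by 0.17 and 0.16 within D1.

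Tpm2 in myotubes had 2943, 2749 and 2742 CPM with si-Setd2#1 and 2625, 2444 and 2387 CPM with si-Setd2#2, against 2553, 2445 and 2335 CPM with si-Ctrl. Only the si-Setd2#1 libraries lay above all controls. The log2 fold change was 0.20 ± 0.05 with si-Setd2#1 (SE; adjusted p = 0.0149) and 0.02 ± 0.05 with si-Setd2#2 (adjusted p = 0.76), and the difference between the siRNAs was not tested. The si-Setd2#1 call was lost without si-Ctrl replicate 3 (0.17, adjusted p = 0.0612) and on the TPM scale (0.16, adjusted p = 0.0595), where the uncalled si-Setd2#2 value turned to -0.06. Tpm3 averaged 325.0 ± 9.93 and 332.5 ± 19.8 CPM with the siRNAs and 325.9 ± 7.08 CPM with si-Ctrl, with overlapping libraries (adjusted p = 0.963 and 0.667).

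In myoblasts, Tpm4 had 1024, 1026 and 1027 CPM with si-Setd2#1 and 1047, 1008 and 1012 CPM with si-Setd2#2, against 831.2, 886.4 and 871.5 CPM with si-Ctrl. The depleted libraries were all above the control libraries, with log2 fold changes of 0.25 ± 0.03 and 0.24 ± 0.03 (SE; adjusted p = 8.59e-05 and 3.97e-05). Without the si-Setd2#2 library whose header names SETD3 the second was 0.25 (adjusted p = 0.000283). Tpm4 differed by 0.30 and 0.33 within C14 and by 0.22 and 0.20 within D2. It was the 1 member called with si-Setd2#1, where 11.6% of all genes were called higher and 8.44% lower; with si-Setd2#2, 2 members were called, both higher, where 17.1% of genes were higher and 16.5% lower.

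Tpm2 in myoblasts had 186.1, 189.0 and 175.0 CPM with si-Setd2#1 and 210.0, 180.2 and 181.9 CPM with si-Setd2#2, against 175.5, 158.4 and 155.4 CPM with si-Ctrl. The si-Setd2#1 libraries overlapped the controls, since si-Ctrl replicate 1 was above the lowest of them, and the si-Setd2#2 libraries did not. On the log2 scale the si-Setd2#1 fold change was 0.17 ± 0.07 (SE; adjusted p = 0.113) and that of si-Setd2#2 was 0.23 ± 0.07 (adjusted p = 0.0267). Without the library whose header names SETD3 the si-Setd2#2 value was 0.26 (adjusted p = 0.0296). The si-Setd2#2 call was lost without si-Ctrl replicate 2 (0.20, adjusted p = 0.0873), without si-Ctrl replicate 3 (0.19, adjusted p = 0.0939), without the low-count filter (0.21, adjusted p = 0.117) and on the TPM scale (0.17, adjusted p = 0.0799). The si-Setd2#1 value passed without si-Ctrl replicate 1 (0.22, adjusted p = 0.0445), without si-Setd2#2 replicate 1 (0.16, adjusted p = 0.0274) and with the header prefix as a term (0.12, adjusted p = 0.000457).

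Tpm1 in myoblasts averaged 539.3 ± 4.48 and 524.4 ± 14.9 CPM with si-Setd2#1 and si-Setd2#2, against 550.1 ± 3.04 CPM with si-Ctrl. Every depleted library lay below every control library, yet the log2 fold changes of -0.03 ± 0.03 and -0.07 ± 0.03 (SE) did not pass (adjusted p = 0.514 and 0.066). The second passed without si-Setd2#2 replicate 1 (-0.10, adjusted p = 0.0154), with the replicate number as a block (-0.07, adjusted p = 0.0428) and with the prefix term (-0.07, adjusted p = 0.00933), and on the TPM scale both passed (-0.09 and -0.12, adjusted p = 0.0433 and 0.00743). Tpm3 in myoblasts averaged 592.2 ± 11.4 and 632.7 ± 5.84 CPM with the siRNAs and 612.9 ± 8.87 CPM with si-Ctrl (adjusted p = 0.207 and 0.199); on the TPM scale the si-Setd2#1 value of -0.12 passed (adjusted p = 0.0291).

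**Figure D4:**
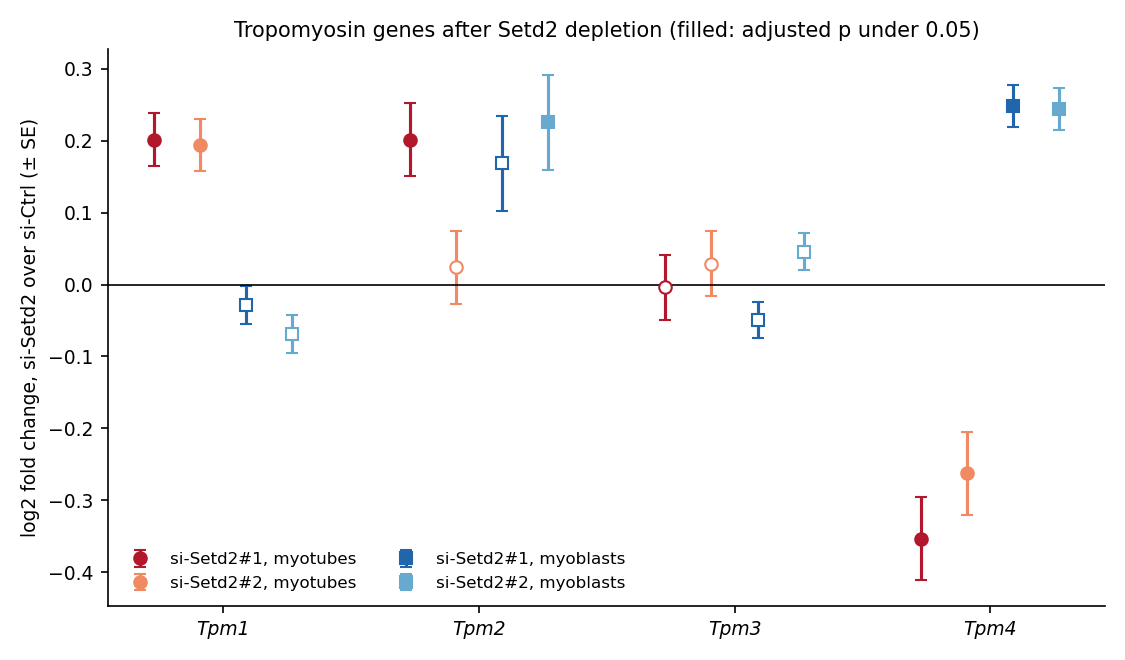
Log2 fold change with its SE of each tropomyosin gene with each siRNA over si-Ctrl, in myotubes (circles) and myoblasts (squares), 3 libraries a group; filled points passed the test. Tpm4 lies at -0.35 and -0.26 in myotubes and at 0.25 and 0.24 in myoblasts, and Tpm1 at 0.20 and 0.19 in myotubes.

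The effect of depletion was tested between the stages directly, as the mean of both siRNAs over control in myotubes minus the same in myoblasts. It differed for Tpm4, by -0.55 ± 0.06 (SE; edgeR adjusted p = 1.22e-06), and for Tpm1, by 0.25 ± 0.04 (adjusted p = 0.000125). Without the myoblast library whose header names SETD3 the values were -0.56 and 0.24, and without si-Ctrl myotube replicate 3 they were -0.50 and 0.23, all called. It did not pass for Tpm2 (-0.08 ± 0.07, adjusted p = 0.459) or Tpm3 (0.02 ± 0.04, adjusted p = 0.846). Across all genes this difference was called higher for 10.6% and lower for 12.8%. At transcript level Tpm4-201 was the 1 of 35 tropomyosin transcripts called (-0.56 ± 0.06, adjusted p = 0.000154), against 4.6% of all transcripts, and it kept its call without either library in doubt. None of 15 stop classes was called by the splicing test, against 0.173% of all classes. With the replicate number as a block 1 class was called, with the header prefix as a term 2, and without myoblast si-Ctrl replicate 3 or without myotube si-Setd2#2 replicate 2 it was 1. As a share of all tropomyosin TPM, Tpm4 held 4.21% ± 0.13, 4.77% ± 0.17 and 6.15% ± 0.57 in si-Setd2#1, si-Setd2#2 and si-Ctrl myotubes, and 38.9% ± 0.09, 38.5% ± 0.12 and 34.9% ± 0.76 in the same myoblast groups.

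Other markers moved with these changes, and their part in them was not tested. In myotubes, 4 of the 6 markers of undifferentiated or dividing cells (Mki67, Top2a, Ccnb1 and Cdk1, genes of cycling cells) were lower with each siRNA, and the CPM summed over the list ran from 257.4 to 269.1 with si-Setd2#1 and from 279.1 to 297.4 with si-Setd2#2, against 361.3 to 384.8 with si-Ctrl. Of the other 2, Myf5, a myogenic factor of myoblasts, was higher with si-Setd2#2 (log2 fold change 0.28, adjusted p = 0.00409). In myoblasts the list did not move one way with si-Setd2#1 (Mki67 higher, Pax7 and Top2a lower) and had Myf5, Mki67 and Cdk1 higher with si-Setd2#2, with sums of 2125 to 2211, 2329 to 2529 and 2161 to 2179 CPM with si-Setd2#1, si-Setd2#2 and si-Ctrl. In myotubes the striated muscle markers summed to 23280 to 28090, 24520 to 26240 and 20510 to 23610 CPM in the same order. Of these 6 markers, 2 and 3 were called higher. Their myoblast sums were 1214 to 1330, 1451 to 1544 and 943.9 to 1110 CPM, with 1 and 2 called higher. Of all genes in myotubes, 11% and 15.8% were called higher and 9.57% and 16.4% lower with si-Setd2#1 and si-Setd2#2. The myoblast shares were 11.6% and 17.1% higher and 8.44% and 16.5% lower. In myoblasts, beside the higher Tpm4, 3 of 6 smooth muscle markers (Smtn, Acta2 and Tagln) were higher with each siRNA, and the list summed to 424.5 to 442.7, 464.0 to 501.1 and 341.2 to 388.4 CPM. The smooth muscle myosin Myh11, which defines that cell type, stayed between 4 and 14 estimated counts a library in myoblasts and between 8 and 21 in myotubes. The fibroblast markers summed to 1080 to 1152, 1256 to 1466 and 886.0 to 1071 CPM in the same myoblast groups, with 1 of 5 tested higher with si-Setd2#1 (Postn) and 3 with si-Setd2#2 (Col1a1, Col1a2 and Postn). Of the 7 listed, a myoblast library held 45325 to 71951 estimated counts of Col1a2, 2735 to 10375 of Col1a1, 408 to 550 of Pdgfra, 171 to 401 of Postn, 118 to 342 of Dcn and 0 to 3 of each of Lum and Thy1. In myotubes the summed fibroblast ranges overlapped between the groups. The smooth muscle sums there were 1720 to 2177, 1697 to 1747 and 1808 to 1944 CPM with si-Setd2#1, si-Setd2#2 and si-Ctrl. Of these 6 smooth muscle markers, 2 were higher and 1 lower with si-Setd2#1, and 2 higher and 2 lower with si-Setd2#2.

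With depletion, the ends of Tpm1 and Tpm3 also differed in myotubes, their 9a shares lying above control, as they do in myotubes beside myoblasts. For Tpm1, 77.4%, 76.9% and 78.7% of TPM ended in 9a with si-Setd2#1 and 78.8%, 77.1% and 77.2% with si-Setd2#2, against 73.6%, 73.9% and 71.9% with si-Ctrl. For Tpm3, the 9a share was 62.9%, 60.5% and 62.1% with si-Setd2#1 and 64.4%, 61.1% and 62.5% with si-Setd2#2, against 55.8%, 53.5% and 54.8% with si-Ctrl. In both genes all 6 depleted libraries lay above all 3 control libraries.

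Both siRNAs together differed from control by 4.55 percentage points for Tpm1 and by 7.51 points for Tpm3 in these shares. For each, the exact two-sided permutation test of 6 libraries against 3 gave p = 0.0238, the smallest it can give, and an adjusted p of 0.181 over the 56 share tests, so neither passed the correction. Without si-Ctrl replicate 3 the differences were 3.93 and 7.56 points, at p = 0.0714, the smallest that 6 against 2 libraries can give in this exact test. Within C13 the Tpm1 share differed by 4.66 points with si-Setd2#1 and by 6.09 points with si-Setd2#2. Within D1 it differed by 3.86 and 3.24 points. The Tpm3 share differed by 7.60 and 9.04 points within C13 and by 7.74 and 8.26 points within D1. For Tpm2 the 9a share was 48.7% ± 0.57, 49.1% ± 0.54 and 49.9% ± 0.91, and its groups overlapped.

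The splicing test across all genes called 3 of 13 tropomyosin stop classes with each siRNA in myotubes, 1 up and 2 down, against 0.142% of all classes with si-Setd2#1 and 0.285% with si-Setd2#2. The Tpm1 9d class fell relative to its gene by 0.45 on the log2 scale with each siRNA (adjusted p = 0.00102 and 0.000503), and kept its call with any 1 library left out (-0.50 to -0.39). With single transcripts in place of stop classes the same test called other items: Tpm1-206, a minor form with a 9b end at 1.75, 3.52 and 3.79 TPM and listed at 0 in all si-Ctrl myotube libraries, alone with si-Setd2#1 (adjusted p = 0.00508), and Tpm3-201 (-0.54, adjusted p = 0.0028) and Tpm3-205 (0.36, adjusted p = 0.041) with si-Setd2#2. The main 9d transcript Tpm1-216 did not pass there (adjusted p = 0.0795 and 0.185). The Tpm3 9d class fell by 0.32 and 0.33 (adjusted p = 0.038 and 0.0136), and the Tpm3 9a joined to 9b class rose by 0.34 and 0.36 (adjusted p = 0.0271 and 0.0065). The Tpm3 calls were fragile. With si-Setd2#1, leaving out any 1 of the 6 libraries compared ended both, with adjusted p of 0.0748 to 0.147 for 9a joined to 9b and 0.0823 to 0.181 for 9d, and leaving out si-Setd2#2 replicate 3 from the fit ended that of 9d (0.0561). With si-Setd2#2, the 9d call ended without si-Ctrl replicate 1 (0.0718), 2 (0.0996) or 3 (0.0557), and that of 9a joined to 9b without si-Ctrl replicate 2 (0.0717), while the values themselves stayed between -0.37 and -0.28 and between 0.28 and 0.40.

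**Figure D5:**
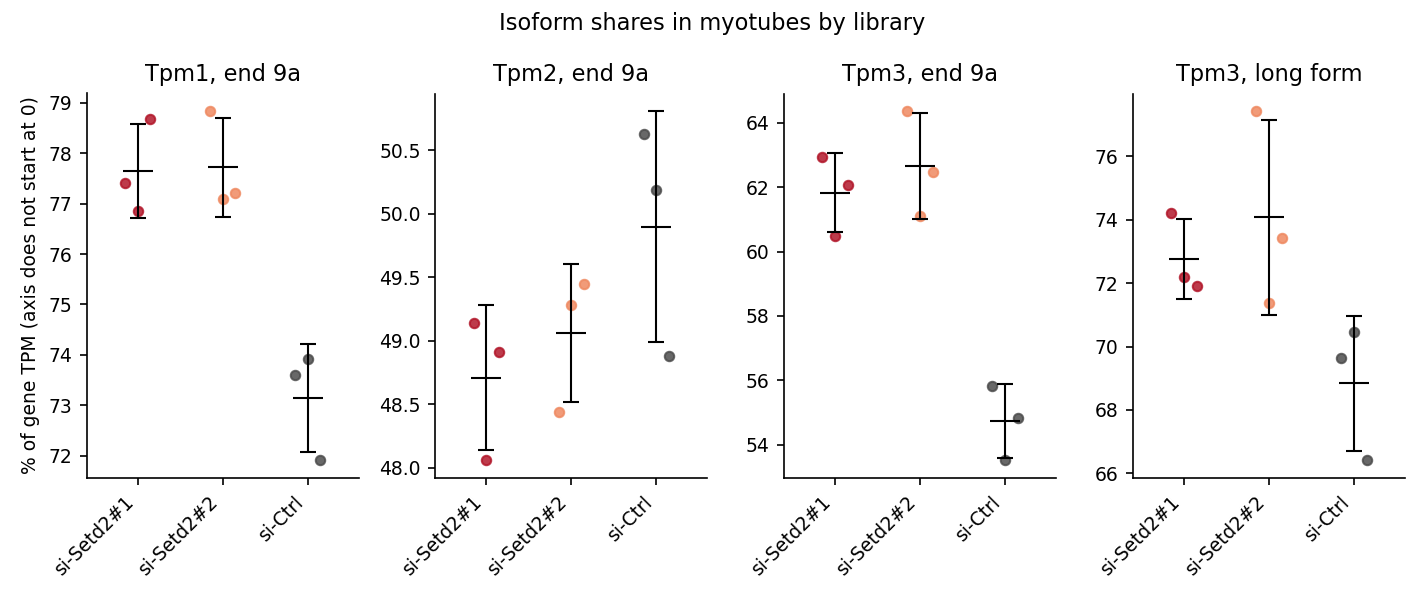
Shares of gene TPM in myotubes, by library, for the muscle end 9a of Tpm1, Tpm2 and Tpm3 and the long form of Tpm3; points are libraries, bars the mean and SD of 3, and the axes do not start at 0. The depleted libraries lie above all si-Ctrl libraries for Tpm1, for Tpm3 and for the Tpm3 long form, and overlap si-Ctrl for Tpm2.

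In Tpm1, transcripts ending in 9a stood at 1747 ± 42.98 and 1700 ± 19.5 TPM with si-Setd2#1 and si-Setd2#2, against 1440 ± 64.9 TPM with si-Ctrl, while those ending in 9d stood at 233.9 ± 6.94 and 225.7 ± 8.58 TPM against 287.5 ± 18.5 TPM. In Tpm3, 9a stood at 280.5 ± 17.5 and 283.3 ± 35.8 TPM against 242.8 ± 11.6 TPM, and 9d at 101.7 ± 0.14 and 100.7 ± 0.81 TPM against 132.4 ± 3.36 TPM. In both genes the means of the muscle ends were thus higher and those of the non-muscle ends lower than in control myotubes. The long 9d form Tpm3-204, which was higher in control myotubes than in control myoblasts, had 68.4, 62.7 and 62.4 TPM with si-Setd2#1 and 71.3, 62.3 and 69.3 TPM with si-Setd2#2, against 81.4, 89.3 and 75.2 TPM with si-Ctrl. All 6 depleted libraries were below the controls, yet it did not pass the test (-0.28 ± 0.07 and -0.17 ± 0.07, SE; adjusted p = 0.0977 and 0.244).

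By transcript, 4 of 32 tested were called with si-Setd2#1 and 3 with si-Setd2#2 in myotubes, against 2.69% and 6.42% of all transcripts. Tpm1-205 rose with each siRNA, by 0.35 ± 0.04 (SE; adjusted p = 0.00984 and 0.00324), and Tpm1-216 fell, by 0.29 ± 0.05 and 0.23 ± 0.05 (adjusted p = 0.03 and 0.0369). Tpm4-201 fell with si-Setd2#1 by 0.35 ± 0.06 and Tpm2-203 rose by 0.25 ± 0.05 (adjusted p = 0.031 and 0.0363). Tpm3-205 rose with si-Setd2#2 by 0.41 ± 0.10 (adjusted p = 0.0473), with 258.7, 193.7 and 200.7 TPM there and 228.4, 200.8 and 212.2 TPM with si-Setd2#1, against 179.2, 167.1 and 182.8 TPM with si-Ctrl. Its first si-Setd2#2 library stood above the others of its group. These calls depended on single libraries. Without si-Ctrl replicate 3, Tpm1-205 kept both calls (0.30 with each siRNA, adjusted p = 0.0362 and 0.0118). The other 5 calls ended there, with adjusted p of 0.0806 and 0.0963 for Tpm1-216, 0.076 for Tpm4-201, 0.148 for Tpm2-203 and 0.122 for Tpm3-205. Those 5 calls also ended without either other si-Ctrl library. With any 1 of the 9 myotube libraries left out of the fit, between 0 and 4 of the 4 si-Setd2#1 calls and between 1 and 2 of the 3 si-Setd2#2 calls held, and no value changed sign. Tpm1-205 kept its call in all 9 fits with si-Setd2#2, and it ended without si-Setd2#1 replicate 2 (adjusted p = 0.0524) or 3 (0.0577) in the si-Setd2#1 comparison.

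The long form share of Tpm3 was 74.2%, 72.2% and 71.9% with si-Setd2#1 and 77.4%, 71.4% and 73.4% with si-Setd2#2, against 69.6%, 70.5% and 66.4% with si-Ctrl. The 6b share of Tpm3 was 73.4% ± 1.20 and 73.7% ± 2.23, against 64.7% ± 1.20 with si-Ctrl. The groups did not overlap in either share, and both siRNAs together differed from control by 4.58 and 8.78 points (exact two-sided permutation test, p = 0.0238 each, adjusted p = 0.181). Without si-Ctrl replicate 3 the differences were 3.37 and 9.01 points (exact p = 0.0714, the smallest that 6 against 2 libraries can give).

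In myoblasts the muscle ends stayed a small part of Tpm1 and Tpm3 in each treatment group. The Tpm1 9a share was 6.19% ± 1.00 and 5.10% ± 0.62 with si-Setd2#1 and si-Setd2#2, against 5.56% ± 1.15 with si-Ctrl, with overlapping libraries. The Tpm3 9a share was 5.73% ± 0.20 and 6.63% ± 0.36, against 5.48% ± 0.26, and the si-Setd2#2 libraries did not overlap the control libraries. That si-Setd2#2 difference was 1.15 points (exact two-sided permutation test, p = 0.1, the smallest possible, adjusted p = 0.181). The Tpm2 9a share, larger in myoblasts, was 28.1% ± 1.39 and 28.4% ± 0.70, against 27.4% ± 1.41, with overlapping libraries. The splicing test called none of 15 tropomyosin classes with si-Setd2#1, where 0.139% of all classes were called, and 1 with si-Setd2#2, where 0.327% were. That class, the Tpm3 9a exon joined to 9d, rose by 0.30 relative to its gene (adjusted p = 0.0185), and by 0.34 without the library whose header names SETD3 (adjusted p = 0.0326). Its call ended without si-Setd2#2 replicate 1 (0.26, adjusted p = 0.112) or 2 (0.31, 0.074) and without si-Ctrl replicate 2 (0.32, 0.0718) or 3 (0.27, 0.193). With single transcripts in place of stop classes the same test did not call Tpm3-202, the short form with 9a (0.30, adjusted p = 0.595). It called Tpm1-211 instead (-0.38, adjusted p = 0.00309).

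By transcript in myoblasts, 1 of 31 tested was called with si-Setd2#1 and 3 with si-Setd2#2, against 2.86% and 8.23% of all transcripts. Tpm4-201 rose with each siRNA, by 0.25 ± 0.03 (SE; adjusted p = 0.00434 and 0.00158). With si-Setd2#2, Tpm3-202, the short form with 9a, rose by 0.35 ± 0.05 (adjusted p = 0.00521) and Tpm1-211, the short form with 9d, fell by 0.45 ± 0.07 (adjusted p = 0.00405). Tpm1-211 had 192.6, 184.7 and 193.3 TPM with si-Setd2#1 and 139.1, 158.4 and 148.1 TPM with si-Setd2#2, against 189.0, 225.6 and 212.4 TPM with si-Ctrl. Without the library whose header names SETD3 the si-Setd2#2 values were 0.26 for Tpm4-201, 0.40 for Tpm3-202 and -0.46 for Tpm1-211 (adjusted p = 0.00744, 0.00574 and 0.0195). All 4 calls held with any 1 of the 9 myoblast libraries left out of the fit. The long form share of Tpm1 was accordingly 68.7% ± 2.62 with si-Setd2#2 and 60.8% ± 0.71 with si-Setd2#1, against 60.4% ± 3.09 with si-Ctrl.

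The tropomyosins were set beside 28 genes of the thin filament, whose proteins form, cap or bind the same filament. From control myoblasts to control myotubes 20 of these rose and 5 fell, where 39.4% of all genes were higher and 38.1% lower. Their median log2 fold change was 4.65, where the median gene was at 0.00. The muscle actins Acta1 and Actc1 rose by 8.13 ± 0.42 and 8.03 ± 0.52 (SE; adjusted p = 6.42e-10 and 7.51e-09), and nebulin (Neb), the ruler of the thin filament, by 8.03 ± 0.45 (adjusted p = 1.23e-09). The smooth muscle actin Acta2 rose by 2.799 ± 0.09 (adjusted p = 1.29e-13), and the cytoplasmic actins Actb and Actg1 fell by 1.39 ± 0.05 and 1.48 ± 0.05 (adjusted p = 4.92e-16 and 1.40e-15). The tropomyosins Tpm2 and Tpm1, at 3.97 and 1.11, thus changed less at gene level than the muscle actins, and Tpm3 and Tpm4 fell, as did the cytoplasmic actins.

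In depleted myotubes the thin filament list was split: 6 rose and 8 fell with si-Setd2#1 and 10 rose and 10 fell with si-Setd2#2. Of all genes, 11% were higher and 9.57% lower with si-Setd2#1, and 15.8% and 16.4% with si-Setd2#2. The list had medians of 0.00 and -0.06 beside 0.00 and -0.01 for the median gene. Acta1 rose (0.26 ± 0.04 and 0.19 ± 0.04, adjusted p = 0.0012 and 0.00403), while Actb fell (-0.19 ± 0.04 and -0.23 ± 0.04, adjusted p = 0.00529 and 0.000867) and Actg1 fell (-0.18 ± 0.04 and -0.24 ± 0.04, adjusted p = 0.0111 and 0.00124). In depleted myoblasts 6 rose and 2 fell with si-Setd2#1, and 6 rose and 0 fell with si-Setd2#2, with medians of 0.29 and 0.33. Actb and Acta2 were among those that rose with each siRNA. Of all genes, 11.6% were higher and 8.44% lower with si-Setd2#1, and 17.1% and 16.5% with si-Setd2#2. In the stage difference of the depletion effect, 2 of the 28 were called higher and 11 lower (median -0.29). Of all genes, 10.6% were called higher and 12.8% lower in it.

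The tropomyosins were also set beside regulators of splicing, including those known to act on tropomyosin and other muscle exons. Of 30 listed, 28 were tested, and 9 rose and 14 fell in control myotubes (median -0.31), where 39.4% of all genes were higher and 38.1% lower. Hnrnpa1 and Srsf1, general regulators of exon choice, fell by 1.71 ± 0.04 and 1.13 ± 0.04 (SE; adjusted p = 9.37e-19 and 1.22e-15), and Rbfox2, a regulator of muscle exons, rose by 0.83 ± 0.03 (adjusted p = 1.81e-15). Qk had 27714 to 42483 estimated counts a myotube library and 21795 to 30710 a myoblast library, and Mbnl1 14215 to 21695 and 18497 to 23614. Less abundant regulators, named as exceptions, rose more than Rbfox2. Rbfox1 had 1060 to 1911 estimated counts a myotube library and 1 to 6 a myoblast library, and Rbm24 9493 to 15707 and 430 to 1405. Ptbp1, the polypyrimidine tract binding protein known to repress regulated exons of tropomyosin genes in rat, was picked out of the list after its values were seen. It averaged 129.7 ± 6.43 CPM (scaled over all libraries) in control myotubes and 518.9 ± 18.3 CPM in control myoblasts, a log2 fold change of -2.0 ± 0.05 (SE; adjusted p = 3.66e-18).

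In depleted myotubes 2 of 26 tested regulators rose and 4 fell with si-Setd2#1, and 4 rose and 6 fell with si-Setd2#2. Of all genes, 11% were higher and 9.57% lower with si-Setd2#1, and 15.8% and 16.4% with si-Setd2#2. The regulators had medians of -0.04 and -0.07 where the median gene was at 0.00 and -0.01. Ptbp1 averaged 109.6 ± 2.41 and 119.2 ± 4.22 CPM, against 129.7 ± 6.43 CPM in si-Ctrl (-0.24 ± 0.04 and -0.12 ± 0.04, adjusted p = 0.00141 and 0.0316), and Hnrnpa1 fell by 0.19 ± 0.05 with each siRNA (adjusted p = 0.0118 and 0.00805). Rbfox2 did not pass (0.04 ± 0.03 and -0.04 ± 0.03, adjusted p = 0.523 and 0.462). In depleted myoblasts 4 rose and 3 fell with si-Setd2#1 and 6 rose and 9 fell with si-Setd2#2, of 27 tested. Of all genes, 11.6% were higher and 8.44% lower with si-Setd2#1, and 17.1% and 16.5% with si-Setd2#2. The regulators had medians of -0.05 and -0.04. Whether any of these changes bears on the tropomyosin isoforms was not tested.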

How the data were processed

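RNA-seq tables of 115088 transcripts were used for 18 libraries in 6 groups, 3 a group. Per the file headers the authors deposited TPM and estimated counts of reads for each transcript, with its length, an output of transcript quantification; no source used here names the aligner or counter. Per the labels' list of tools and builds, the submitters used mm10 and DESeq2. Transcripts were matched by Ensembl ID to GENCODE M21 (114200 matched; the 888 others held 0.16% to 0.24% of counts). Estimated counts were rounded after summing by gene or stop codon and tested with edgeR 4.0.16 in R 4.3.3 (minimum count 10, TMM scaling, robust quasi-likelihood) within each stage, or over all libraries for stage differences, with Benjamini-Hochberg adjustment over all features. SE is the log2 fold change divided by the root of F. Muscle class means a last coding exon 9a with at least 10 coding bases; shares were tested with exact permutation tests. Named were all members, transcripts with at least 5 TPM in a group mean, up to 6 genes a list with the highest CPM, and exceptions named as such. No source pairs the samples by replicate number, and the main fits used no block. Correlations of deviations between same-numbered libraries ran from -0.15 to 0.3. The fits were tested on simulated data. Alternatives used DESeq2 1.42.0, limma 3.58.1 on log2(TPM + 1), and left-out libraries; transcript fits with libraries left out, and exon 6b and long form shares without the libraries in doubt, were added after seeing the data. Members and lists were chosen with earlier results of these data known.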

Additional observations from a re-analysis of the deposited data

Results flagged for a closer look

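The response of 2 tropomyosin genes to Setd2 depletion differed between the stages in a test of the difference itself (edgeR, all 18 libraries). For Tpm4 the effect in myotubes minus that in myoblasts was -0.55 on the log2 scale (adjusted p = 1.22e-06): the gene was lower in 6 of 6 depleted myotube libraries and higher in 6 of 6 depleted myoblast libraries than in every control of the stage. For Tpm1 it was 0.25 (adjusted p = 0.000125), with 6 of 6 depleted myotube libraries above the controls. Leaving out any 1 library kept both within -0.60 to -0.50 and 0.23 to 0.27. The markers of dividing cells moved in the same comparison for 4 of 6 genes, all lower. So did 3 of 6 smooth muscle markers, 2 of 5 fibroblast markers and 1 of 6 striated muscle markers, all lower, and 13 of 28 thin filament genes (11 lower, 2 higher). Across all genes, 12.8% were called lower and 10.6% higher in this comparison. The part of the listed markers and genes was not tested.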

How the results depend on the processing

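The number of tropomyosin genes called in myoblasts with si-Setd2#2 was 1 without the low-count filter, against 2. With si-Setd2#1, where 1 was called, it was 2 with the header prefix as a term and 3 by limma with either pseudocount (1 or 0.1). With any 1 library left out it ran from 1 to 2 with si-Setd2#1, from 1 to 3 with si-Setd2#2 and from 2 to 3 in si-Setd2#1 myotubes. DESeq2 and its scaling (RLE) changed no such count by over 1.5 times. With transcripts in place of stop classes, 1 was called in si-Setd2#1 myotubes, against 3, and 19 between the stages, against 11.

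No source pairs the samples by replicate number, and the main fits had no block or prefix term. Best agreement with the own number held in 11 of 18 checks in each stage. Deviations of same-numbered libraries correlated at -0.15 to -0.05 across different prefixes and at -0.03 to 0.3 within a prefix. Whether libraries of a prefix share a batch was not tested. With the replicate number as a block, 2 tropomyosin genes were called in si-Setd2#1 myoblasts, where Tpm2 then passed (adjusted p = 0.00351), and 3 in si-Setd2#2 myoblasts, where Tpm1 passed (-0.07, adjusted p = 0.0428). The blocked 9a share differences of both siRNAs in myotubes were 4.55 points for Tpm1 and 7.51 points for Tpm3, each at p = 0.25, the smallest an exact sign-flip test of 3 pairs can give.

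Within prefixes and with no test, the Tpm1 9a share differed by 6.09 (C13) and 3.24 points (D1) in si-Setd2#2 myotubes and by 3.55 points with both siRNAs (D1). In myoblasts it differed by -0.11 points with si-Setd2#1 (C14) and by -0.40 (C14) and -0.047 points (D2) with both, and the Tpm2 share by -0.49 points with si-Setd2#1 (D2). With single libraries left out, the Tpm1 share ran from 3.93 to 4.93 points and the Tpm3 share from 6.91 to 8.05 points with both siRNAs in myotubes, where leaving out a control raises the smallest exact p to 0.0714. In myoblasts the Tpm1 share ran from -0.97 to 0.17 points with si-Setd2#2 and from -0.42 to 0.71 with both, the Tpm2 share from -0.10 to 1.504 with si-Setd2#1, and the Tpm3 share from 0.53 to 0.83 with both. No called value changed sign. Values that were not called did: at gene level Tpm2 with si-Setd2#2 and Tpm3 with each siRNA in myotubes and Tpm3 between the stages, and in myoblasts the Tpm1 9a share with each siRNA and with both (0.0878 points with all libraries), the Tpm2 9a share with si-Setd2#1 and the Tpm1 6b share with both; in myotubes, the Tpm1 long form share with si-Setd2#1. The cause of these changes was not tested.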

Other observations

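The genes whose levels followed each tropomyosin most closely once the mean of each stage was subtracted are given as a description, over 18 libraries and 12676 genes with a mean of at least 1 CPM, with Pearson's r of log2(CPM + 1). Libraries of a group share their treatment, so these values reflect group differences as well as single libraries. Tpm1 was followed by Fam241a (0.946), Hagh (0.944) and Cul4a (0.937). Tpm2 was followed by Maged1 (0.931), Psme1 (0.925) and Ntn4 (0.908), and Tpm3, with lower values, by Zfp142 (0.902), Tacc2 (0.851) and Ppargc1b (0.836). Tpm4 was followed by Serp1 (0.951) and by 2 genes of mitosis, the kinesin Cenpe (0.941) and the anaphase activator Cdc20 (0.937).

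Near copies and neighbours held few counts. The Tpm3 copy Tpm3-rs7 had 185.1 to 603.0 estimated counts a library and Tpm3-rs2 was listed at 0. Opposite Tpm4 the antisense genes Gm16091 and Gm26586 had 62.0 to 120.0 and 43.2 to 184.0 estimated counts a library; no source used here states whether counting used strand.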
